A study of Mus musculus with 6 samples.

Results

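The nuclear-encoded subunits of respiratory complex I were examined in hematopoietic stem and progenitor cells (HSPCs) that carry or lack ING4. The members were all protein-coding genes whose symbol is Nduf followed by a, b, c, s or v and a number, which leaves out the Ndufaf assembly factors. This rule gave 37 of the 49315 genes in the count files. Bulk RNA-seq had been done on 6 libraries: long-term HSCs (LT-HSCs, sorted from lineage-depleted marrow as LSK CD48-CD34-CD150+ cells, LSK being lineage-negative, Sca-1+ and c-Kit+), short-term HSCs (ST-HSCs, LSK CD48-CD34+CD150+) and multipotent progenitors (MPPs, LSK CD48-CD34+CD150-), each from WT and from ING4-/- mice. WT mice were C57BL/6 aged 8 to 12 weeks. ING4-/- mice carry no functional copy of the gene by genotype, no tissue-specific driver is named, and their age for this assay is not given in the sources used here. Marrow of 8 to 10 mice was pooled, so there was 1 library per genotype and population, and the 3 populations served as the 3 samples of a genotype. The p-values therefore measure only the spread between these libraries.

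Complex I (NADH:ubiquinone oxidoreductase) is the entry point for electrons from NADH into the mitochondrial respiratory chain, and it couples their transfer to ubiquinone to the pumping of protons across the inner membrane. It is shaped like an L. Its matrix arm holds the flavin and the chain of iron-sulfur clusters, and its membrane arm holds the proton channels. The nuclear genes encode the core subunits of the matrix arm and a larger set of accessory subunits that surround both arms, while the core of the membrane arm is encoded by mitochondrial DNA. Quiescent HSCs are known for low respiration and a reliance on glycolysis, and respiration goes up as they are activated.

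Total counts ranged from 7839326 to 9363442 in WT libraries and from 35596876 to 39192588 in ING4-/- libraries. At least 1 count was seen for 36082 to 41763 genes in WT but for only 14680 to 16188 genes in ING4-/- libraries. Counts on 1431 odorant and vomeronasal receptor genes, which blood cells do not use, were 18.1 to 22.7 per kb of exon in WT and 0.0386 to 0.0851 in ING4-/- libraries. Spread evenly over all exons, that density would make up 22.6% to 33.4% of WT counts, and at most 0.0280% of ING4-/- counts. For the complex I members it would make up 4.35% to 6.73% of WT counts. Genotype and this feature of the libraries cannot be told apart. Ing4 had 162 to 247 counts in WT libraries and 0, 24 and 76 in ING4-/- LT-HSCs, ST-HSCs and MPPs. Among the sort markers, Slamf1 (CD150) was highest in LT-HSCs and Cd34 in MPPs of both genotypes, and Ly6a (Sca-1) was the only one called higher in ING4-/- libraries (log2 fold change 2.14, adjusted p = 0.021 by edgeR). Transcripts of markers that a gate excludes were present, with 1036 and 9500 counts of Cd34 in WT and ING4-/- LT-HSCs and 376 and 4300 counts of Cd48 in WT and ING4-/- MPPs.

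The complex I transcripts took up a larger share of every ING4-/- library. In the order LT-HSCs, ST-HSCs, MPPs, which is used for all library values here, they held 0.298%, 0.311% and 0.313% of the WT counts, and 0.675%, 0.851% and 0.770% of the ING4-/- counts. The groups did not overlap. The share was 2.26 times higher in ING4-/- LT-HSCs, 2.73 times higher in ST-HSCs and 2.46 times higher in MPPs. With the receptor-gene density subtracted from every gene, the ratios were 1.82, 2.17 and 2.09. In bulk samples, more RNA per cell and more cells that express a gene cannot be told apart.

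Of the 37 members, 36 passed the filter on low counts, and 33 of them were called higher in ING4-/- HSPCs by edgeR's quasi-likelihood test (Benjamini-Hochberg adjusted p under 0.05 and a log2 fold change over 1). Of all 31001 genes tested, 7.98% were called higher. No member was called lower, none was lower at an unadjusted p under 0.05, and DESeq2 called none lower. The median log2 fold change of the members was 1.82, or 3.53-fold, with a range from -0.08 to 2.32. Over all genes tested the median was -6.85, and 17566 genes were called lower. When the fit was limited to the 9673 genes that reached 10 counts in each of the 6 libraries, the median of all genes was 0.02, the median of the members was 1.30 and 30 of the 36 were called higher, against 8.3% of these genes. The members not called there were Ndufa9, Ndufa10, Ndufs1, Ndufs3, Ndufv1 and Ndufv3. In 35 of the 36 members each ING4-/- library stood above each WT library, which held for 12% of all genes tested.

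**Figure D1:**
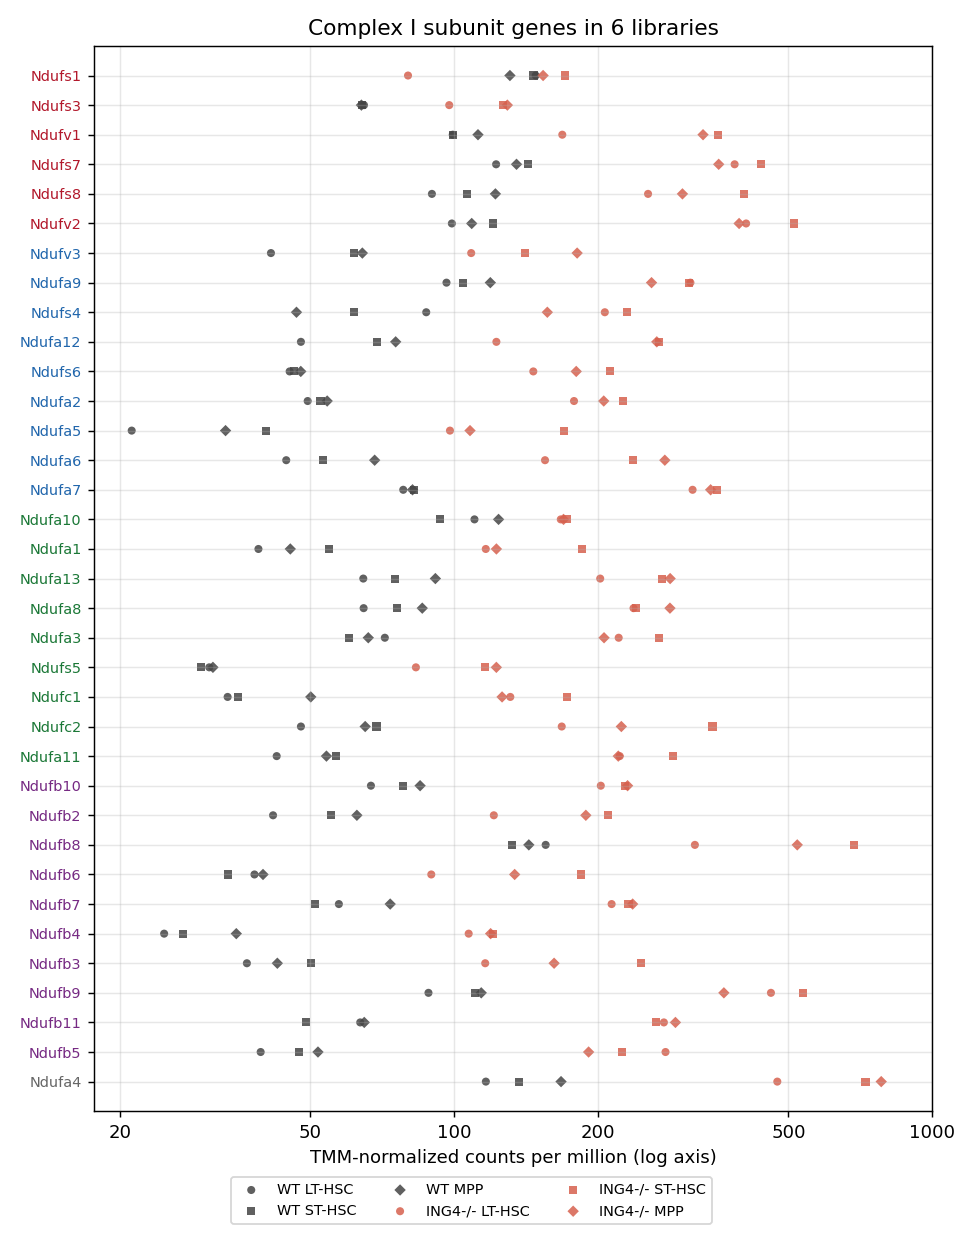
TMM-normalized CPM (log axis) of 35 of the tested members in the 6 libraries, with WT in grey, ING4-/- in red, and populations by marker shape; gene names are coloured by place in the complex. The ING4-/- markers lie to the right of all WT markers for all genes drawn but Ndufs1.

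The core subunits of the matrix arm, which carry the redox centres, were the most uneven group: 5 of 7 were called higher, with a median log2 fold change of 1.56. Ndufv2, which holds an iron-sulfur cluster next to the NADH site, had 98.9, 120 and 109 CPM (counts scaled to the size of the library) in WT and 408, 512 and 394 CPM in ING4-/- libraries. It rose by 2.00 ± 0.19 on the log2 scale (SE, adjusted p = 6.6e-04), the highest of the core. The gene lies at chr17:66078795-66101559. Ndufs7, which carries the last cluster before ubiquinone, had 122, 143 and 135 CPM in WT and 386, 439 and 357 CPM in ING4-/- libraries, a log2 fold change of 1.56 ± 0.17 (adjusted p = 6.6e-04). All 3 values of either gene were well clear of WT.

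Ndufs8, another iron-sulfur protein, had 89.8, 106 and 122 CPM in WT and 254, 404 and 300 CPM in ING4-/- libraries (log2 fold change 1.59 ± 0.24, adjusted p = 8.8e-04). Ndufv1, which binds NADH and the flavin, had 99.3, 99.5 and 112 CPM in WT and 168, 356 and 331 CPM in ING4-/- libraries (1.46 ± 0.30, adjusted p = 0.0037). Its LT-HSC pair was the closest, with a log2 ratio of 0.76 against 1.84 in ST-HSCs and 1.56 in MPPs, and without both MPP libraries its call was lost (log2 fold change 1.22, adjusted p = 0.056).

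The other core subunits, Ndufs1 and Ndufs3, were not called. Ndufs1, the largest subunit, through which electrons leave the flavin domain, had 148, 147 and 131 CPM in WT and 80.1, 170 and 153 CPM in ING4-/- libraries. The groups overlapped, since ING4-/- LT-HSCs lay below all WT libraries and the other ING4-/- populations above them. Its log2 fold change was -0.08 ± 0.30 (adjusted p = 0.85), and its sign depended on the scaling, at 0.52 with upper-quartile scaling and -0.46 with DESeq2 size factors, and on ING4-/- LT-HSCs, without which it was 0.22. The gene lies at chr1:63143596-63176833. Ndufs3 had 64.8, 64.2 and 64.0 CPM in WT, nearly the same value in each, and 97.6, 127 and 129 CPM in ING4-/- libraries. Its difference passed the test but not the fold threshold (0.87 ± 0.22, adjusted p = 0.0087). The fold passed the threshold without the ING4-/- LT-HSC library (1.02), without both LT-HSC libraries (1.04) and with upper-quartile scaling (1.46). The test was not passed in several alternatives. They included the fits without both MPP libraries (0.62, adjusted p = 0.15), without both ST-HSC libraries (0.83, adjusted p = 0.088) and by DESeq2 (0.52, adjusted p = 0.055). The filter of 10 counts (0.36, adjusted p = 0.32) and background subtraction (0.16, adjusted p = 0.61) were also among them. The sign was negative with either length trend removed (-0.09 and -0.34).

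All 9 accessory subunits of the matrix arm were called higher, with log2 fold changes from 1.36 to 2.06. Ndufa7 (2.06 ± 0.16), the LYR-motif protein Ndufa6 (2.01 ± 0.30), Ndufa5 (1.98 ± 0.36) and the thioredoxin-fold protein Ndufa2 (1.96 ± 0.20) were the highest. Ndufs6, which binds zinc, followed with 1.95 ± 0.22. Ndufa12, which replaces an assembly factor late in assembly, changed by 1.77 ± 0.36. Ndufs4, a subunit whose loss causes Leigh syndrome, changed by 1.60 ± 0.30. Ndufa9, which lies near the ubiquinone pocket, was at 1.46 ± 0.18. Ndufv3, a small peripheral subunit, was the lowest of the group at 1.36 ± 0.29.

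Of the 9 accessory subunits of the proximal membrane arm, 8 were called higher. Ndufa11, next to the junction with complex III in supercomplexes, had 42.5, 56.6 and 54.1 CPM in WT and 222, 287 and 220 CPM in ING4-/- libraries. It rose by 2.25 ± 0.23 on the log2 scale, or 4.76-fold (adjusted p = 6.6e-04). The lowest ING4-/- value lay far above the highest WT value. Ndufc2 (2.02 ± 0.32), Ndufc1 (1.85 ± 0.27), Ndufs5 (1.81 ± 0.26), Ndufa3 (1.81 ± 0.20), Ndufa8 (1.75 ± 0.20), Ndufa13 (1.71 ± 0.23) and Ndufa1 (1.61 ± 0.28) were also called higher. Ndufa8 and Ndufs5 face the intermembrane space, and Ndufa13, also known as GRIM-19, crosses the membrane near the foot of the matrix arm. Ndufa10, which has the fold of a nucleoside kinase, was the exception. It had 110, 93.3 and 124 CPM in WT and 167, 172 and 169 CPM in ING4-/- libraries, a smaller step with little spread in ING4-/- cells. Its difference of 0.63 ± 0.19 (adjusted p = 0.022) passed the test but stayed under the fold threshold. The test was not passed in several alternatives. They included DESeq2 (0.30, adjusted p = 0.20), the filter of 10 counts (0.13, adjusted p = 0.67) and the fit without the WT ST-HSC library (0.49, adjusted p = 0.11). Nor was it passed without both LT-HSC, ST-HSC or MPP libraries (adjusted p = 0.0525, 0.165 and 0.139 by edgeR). With upper-quartile scaling the gene was called (1.23). Its sign was negative with background subtracted (-0.07) and with the exonic (-0.05) or main transcript length trend removed (-0.07).

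All 10 accessory subunits of the distal membrane arm, the Ndufb genes, were called higher, with a median log2 fold change of 1.95. Ndufb5 had 39.4, 47.4 and 51.9 CPM in WT and 277, 224 and 191 CPM in ING4-/- libraries. Its log2 fold change of 2.32 ± 0.24 (4.99-fold, adjusted p = 6.6e-04) was the highest of the 36, and its ING4-/- values ran from LT-HSCs down to MPPs. The gene lies at chr3:32736990-32751566. Ndufb11 (2.22 ± 0.20) and the LYR-motif protein Ndufb9 (2.12 ± 0.22) came next. Ndufb3, Ndufb4, Ndufb7, Ndufb6, Ndufb8 and Ndufb2 lay between 2.01 and 1.70, and Ndufb10 was the lowest at 1.52 ± 0.19. Ndufb8, a subunit often used to gauge complex I on blots, had the widest gap between the ratios of LT-HSCs and ST-HSCs. It had 155, 132 and 143 CPM in WT and 319, 685 and 522 CPM in ING4-/- libraries.

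Ndufa4 and Ndufa4l2 bear the family name, but Ndufa4 is now placed in complex IV and Ndufa4l2 is its hypoxia-induced paralog. Ndufa4 had 116, 137 and 167 CPM in WT and 474, 724 and 781 CPM in ING4-/- libraries. It rose by 2.23 ± 0.25 on the log2 scale (4.71-fold, adjusted p = 6.6e-04), among the 3 highest of the members. The gene lies at chr6:11900292-11907497. Ndufa4l2 had 3 counts in WT LT-HSCs and 0 in the other 5 libraries and was not tested; a count of 0 allows up to 3 counts in a library, by counting error only.

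**Figure D2:**
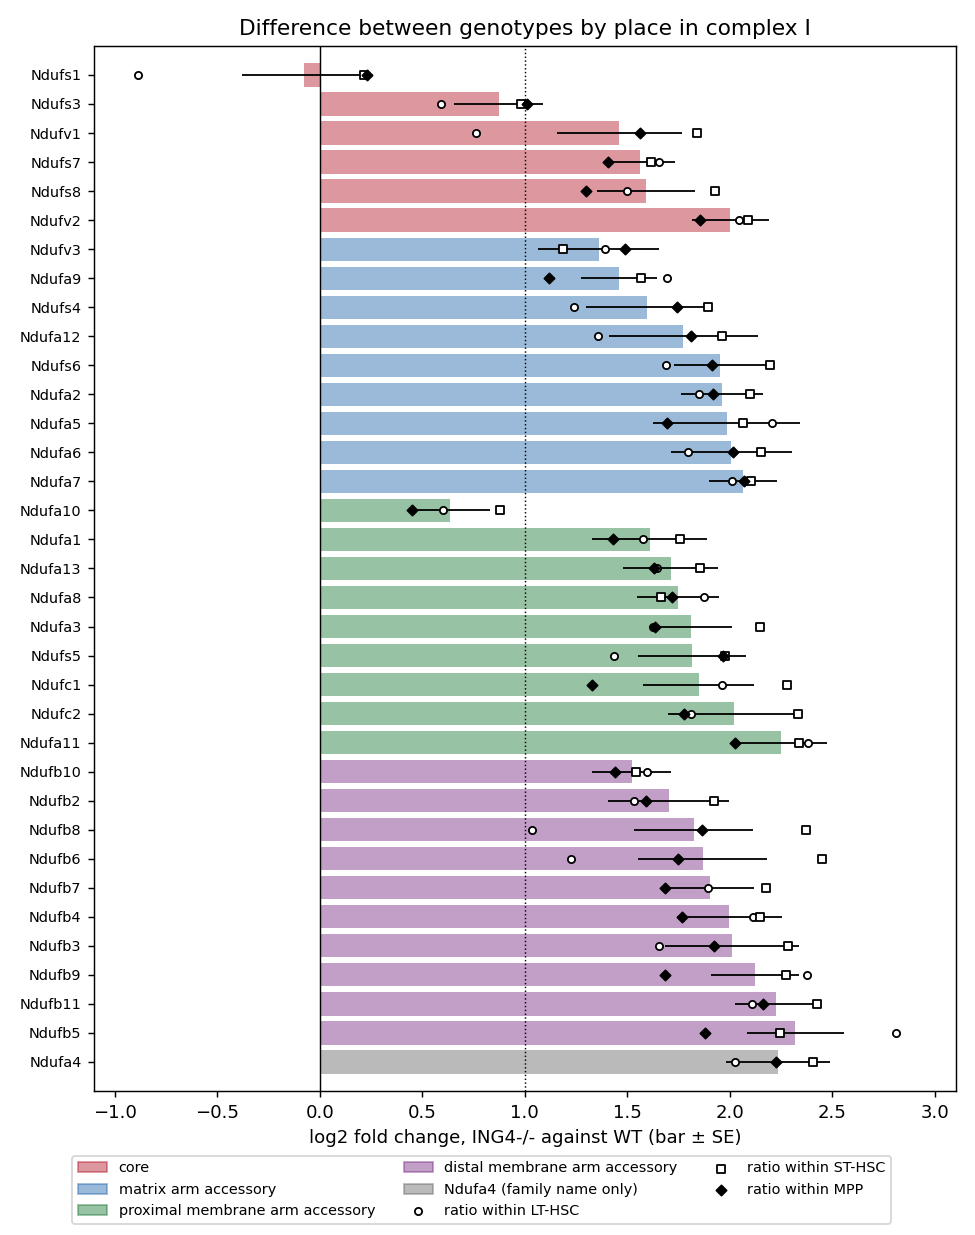
Log2 fold change of ING4-/- against WT HSPCs for 35 of the tested members, drawn as bars with the SE of the edgeR fit, coloured by place in the complex, with the log2 ratio within each population as markers; the dotted line marks the fold threshold. The bars of Ndufs1, Ndufs3 and Ndufa10 end short of the threshold, and only Ndufs1 has a marker left of 0.

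Within populations, where 1 library per genotype allows no test, the log2 ratio was positive for 35 of 36 members in LT-HSCs and for all 36 in the other populations. The median ratio of the members was 1.67, 2.08 and 1.71. Over the 9673 genes described above it was 0.55, 0.59 and 0.37 on the same scale. The widest ratios were 2.81 for Ndufb5 in LT-HSCs, 2.45 for Ndufb6 in ST-HSCs and 2.22 for Ndufa4 in MPPs. Ndufb8 (1.04 in LT-HSCs, 2.37 in ST-HSCs) and Ndufb6 (1.23 and 2.45) showed the largest gaps between the HSC populations.

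The design also allowed the populations to be compared, with the genotypes as their only repeats. Most members were lowest in LT-HSCs, 26 of 36 in WT and 25 of 36 in ING4-/- cells. The highest population was MPPs for 22 members in WT and ST-HSCs for 23 members in ING4-/- cells. In WT the median log2 difference of MPPs from ST-HSCs was 0.12 in the members and 0.17 in the 9673 genes, and from LT-HSCs it was 0.30 and 0.20. In ING4-/- cells MPPs differed from ST-HSCs by a median of -0.15 in the members and -0.05 in those genes. These differences were small. The median log2 difference from LT-HSCs was 0.28 for ST-HSCs, with 30 of 36 members above 0, and 0.26 for MPPs, with 32 of 36 above 0, while the medians over all genes were 0.04 and 0.03. With genotype as a term, edgeR called 0 of the 36 members and 0% of all genes in either contrast, and DESeq2 called 0 members, 285 genes in ST-HSCs and 435 genes in MPPs against LT-HSCs. At an unadjusted p under 0.05 stood 4 members in each contrast, beside 1.99% and 1.81% of all genes. They were Ndufa5, Ndufa12, Ndufc2 and Ndufb3 in ST-HSCs, and Ndufa12, Ndufa6, Ndufv3 and Ndufa4 in MPPs. Ndufa12 showed the largest difference in MPPs, 0.88 ± 0.26 on the log2 scale, which did not pass the adjusted test.

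The order of levels among the members was alike in both genotypes. Per kb of the main annotated transcript, Ndufa4 was highest, with 230 ± 41.9 CPM in WT and 1082 ± 268 CPM in ING4-/- libraries (SD, n = 3). Ndufb8 followed, with 211 ± 17.0 in WT and 748 ± 270 in ING4-/- libraries, so these neighbours did not differ beyond their spread. Ndufa7 (153 ± 4.31) and Ndufb9 (148 ± 19.8) came next in WT, and they were likewise within their spread in ING4-/- cells (640 ± 38.3 and 645 ± 121). The lowest was Ndufb2 in either genotype, at 12.2 ± 2.41 and 39.6 ± 10.6, but its annotated transcript is unusually long for this family. Per kb of all annotated exons the top gene was Ndufb9 instead, at 160 ± 21.4 and 698 ± 131 CPM. Across the 36 genes, which are not independent replicates, the WT and ING4-/- levels per kb of exon had a Spearman correlation of 0.97, a description that shares gene length between its axes. For plain CPM it was 0.70.

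Complex I transcripts are short, and short transcripts as a whole were higher in ING4-/- libraries. The median main transcript was 891.5 bases in the members, beside 2805.5 bases in the 9673 genes of the stricter filter. In that fit, the median log2 fold change of all genes was 0.94 for transcripts up to 1000 bases, 0.53 from 1000 to 2000, 0.04 from 2000 to 4000, and -0.67 above 4000 bases. The 21 members of up to 1000 bases had a median of 1.45 and all 21 were called higher, against 34.8% of the 893 other genes of that length. The 12 members of 1000 to 2000 bases had a median of 1.11, with 8 called, against 14.0% of the genes of that length. Of the longer members, Ndufa10 (2020 bases) and Ndufs1 (2661 bases) were not called and Ndufb2 (4371 bases) was called. Across the 36 members, the Spearman correlation of the log2 fold change with the length of the main transcript was -0.53.

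**Figure D3:**
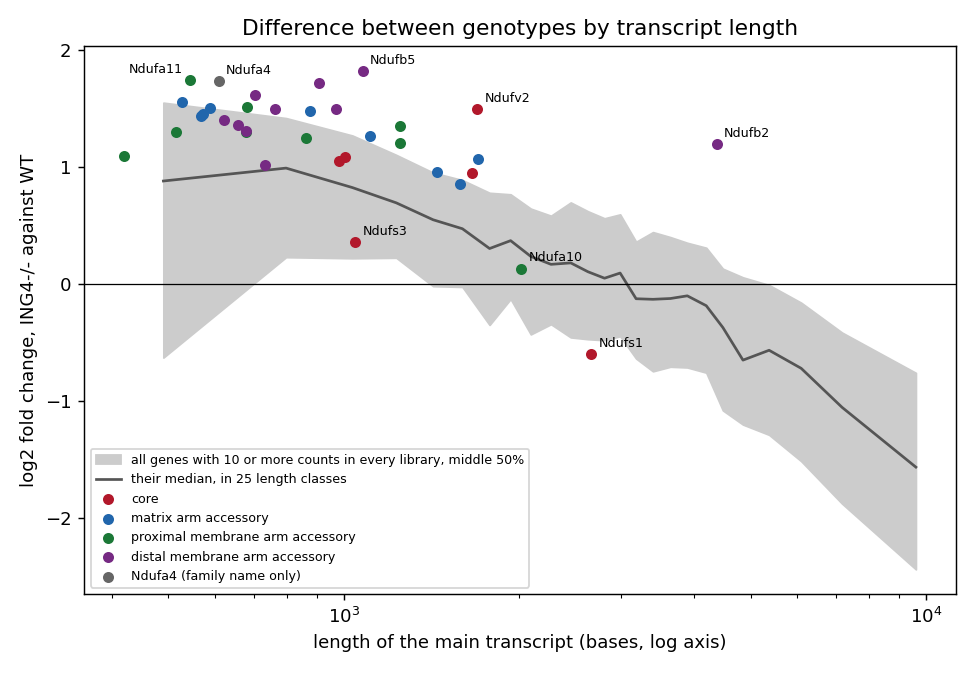
Log2 fold change of ING4-/- against WT against the length of the main transcript (log axis) among genes that reached 10 counts in each library, with the median and middle 50% of all genes in grey and the members coloured by place in the complex. Most members lie above the grey median for their length, and both fall with length.

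When the trend on length was removed in each library, most calls were lost. With the trend on exonic length, 6 of 36 members were called higher, against 4.65% of all genes: Ndufb5, Ndufb2, Ndufb7, Ndufa11, Ndufb8 and Ndufa4. Several of them have far more annotated exon than main transcript. The lengths are 4995 and 1079 bases for Ndufb5, 4522 and 623 for Ndufb7, 3146 and 680 for Ndufb8, and 2661 and 545 for Ndufa11. With this trend removed, the median of the members was 0.70, beside 0.06 for all genes, and 34 of 36 were above 0. Ndufs1 was at 0.13, against -0.60 with the filter of 10 counts alone, and Ndufa10 (-0.05) and Ndufs3 (-0.09) were below 0. With the trend on the main transcript, which was chosen after seeing the data, 3 were called, against 3.94% of all genes: Ndufb2 (1.59), Ndufv2 (1.16) and Ndufb5 (1.15). Their median was 0.61, beside 0.08, with 33 above 0. Only Ndufb5 and Ndufb2 were called with both lengths, and the main transcript annotated for Ndufb2 (4371 bases) is unusually long for this family. With the main transcript length, Ndufa11 (0.91), Ndufa4 (0.89), Ndufb7 (0.57) and Ndufb8 (0.46) dropped under the fold threshold. Such a correction also takes away any difference that short genes share in the cells.

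Subtraction of the receptor-gene density left 22 of 36 members called higher, against 5.6% of all genes, with a median of 1.09. The median of all genes was then -0.93. In the core, Ndufv2 stayed called, at 1.24, and Ndufs8 (0.80), Ndufs7 (0.78) and Ndufv1 (0.72) dropped under the fold threshold. When 10 counts had to be left in each library, 15 were called, against 3.97% of all genes, with a median of 1.00. With the trend on exonic length also removed, 4 were called, against 1.98% of all genes, with a median of 0.35 beside 0.03 for all genes: Ndufb5, Ndufb2, Ndufb7 and Ndufa11. The annotated exons of these 4 are long, as given above for all but Ndufb2 (5628 bases). Both settings with 10 counts left were chosen after seeing the data.

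**Figure D4:**
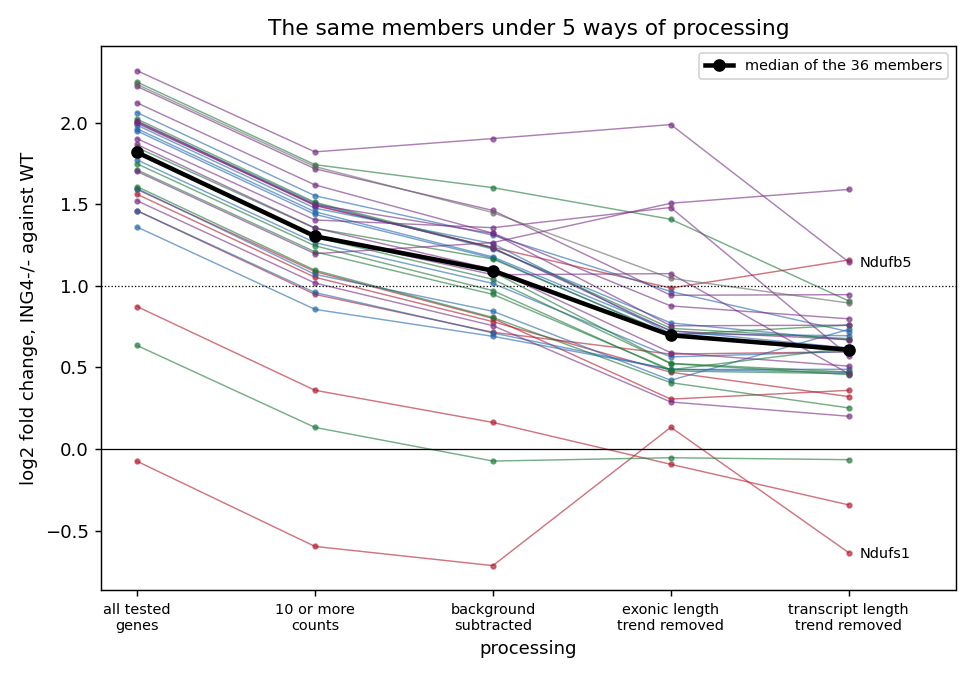
Log2 fold change of 35 of the tested members, 1 thin line a gene coloured by place in the complex, under 5 ways of processing, with the median of all 36 in black and the fold threshold dotted. The median falls from 1.82 to 0.61, and the lines of Ndufb5 and Ndufb2 keep above the threshold throughout. Ndufb2 is annotated with an unusually long transcript for this family.

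Other genes of complex I were read from lists. Ndufab1, the mitochondrial acyl carrier protein that is a subunit of the complex under a name outside the rule, had 87.3, 117 and 117 CPM in WT and 192, 321 and 280 CPM in ING4-/- libraries. It was called higher (1.31 ± 0.25, adjusted p = 0.0026), and this call was lost with the stricter filter of 10 counts (0.80) and under 7 other alternatives. With the trend on exonic length removed it held (1.34), and with the trend on the main transcript removed it was lost (0.97). Of the 7 mitochondrially encoded subunits, mt-Nd2 was called higher (1.32 ± 0.22), mt-Nd3 (-2.45 ± 0.56) and mt-Nd4l (-6.08 ± 1.49) were called lower, and the median was -0.03. With population as a term in the edgeR fit, the call of mt-Nd3 was lost (-2.34, adjusted p = 0.055). mt-Nd4l had 263, 173 and 94 counts in WT and 1, 1 and 25 in ING4-/- libraries, and it overlaps mt-Nd4, which had 2829 to 4404 and 22376 to 27812.

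Of 18 assembly factors tested, 5 were called higher, against 7.98% of all genes tested, and none lower. Their median log2 fold change was 0.78. Those called were Dmac1 (2.16 ± 0.40), Ndufaf8 (2.07 ± 0.36), Tmem126b (1.95 ± 0.40), Ndufaf1 (1.27 ± 0.41) and Tmem70 (1.26 ± 0.35). With population as a term in the edgeR fit, the call of Ndufaf1 was lost (1.18, adjusted p = 0.071). Ndufaf8 works with Ndufaf5, which modifies Ndufs7, and Tmem126b and Ndufaf1 belong to the assembly complex of the membrane arm. Nubpl, which delivers iron-sulfur clusters, was at -0.96 ± 0.50 and was not called. With the filter of 10 counts, 3 of the 18 were called, against 8.3% of all genes, and the median was 0.29. With the exonic length trend also removed, none of the 18 was called higher and the median was -0.003.

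In complex II, the other entry of electrons, 6 of 8 genes were called higher, against 7.98% of all genes tested, with a median of 1.16. Among them were the subunit genes Sdhb (1.71 ± 0.16), Sdhd (1.64 ± 0.28) and Sdhc (1.12 ± 0.26), while Sdha (0.92 ± 0.26) stayed under the fold threshold. Of 12 regulators of respiratory genes, Tfb1m (1.48 ± 0.45) and Tfam (1.08 ± 0.24) were called higher. Neither Nrf1 (-0.15 ± 0.33), Gabpa (-0.32 ± 0.42) nor Yy1 (0.43 ± 0.55) was called. Under the filter of 10 counts, Sdhb (1.20) and Sdhd (1.12) were the only complex II genes called and the median of the 8 was 0.65. None of the 11 regulators tested there was called higher, with Tfb1m at 0.98 and Tfam at 0.58, and Gabpb2 was called lower (-2.34). None of the 6 mitochondrial genes tested there was called higher, and mt-Nd3 (-2.99) and mt-Nd5 (-1.38) were called lower. With the exonic length trend also removed, no gene of these 3 lists was called higher.

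NRF1, GABPA and YY1 bind promoters of many respiratory genes, so the promoters of the members were read. The RefSeq windows of 250 bases before to 50 after the start (GRCm38.p6) held 32 of the 37 members by symbol, with Ndufs1, Ndufa2, Ndufb9 and Ndufa4l2 among those it did not hold. The letters GCATGCGC of NRF1, on either strand, were in 3 of the 32 (9.38%) and in 3.05% of 27025 genes. The letters CCGGAAG of the ETS factor GABPA were in 4 (12.5%) and 9.93%, and AAGATGGCG of YY1 was in 5 (15.6%) and 1.64%. A match is a description and not a binding site. Members with the NRF1 letters had log2 fold changes from 1.75 to 2.25, those with the ETS letters from 0.87 to 1.90, and those with the YY1 letters from 1.46 to 1.95.

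The NRF1 letters stood upstream of Ndufa11, which had the second highest fold change of the members, of Ndufa6 and of Ndufa8 (1.75). The 120 bases before the starts of Ndufa11 and Ndufa6 are shown 5′ to 3′ along the gene with the matches in capitals. In Ndufa11 matches on both strands overlap. They lie at chr17:56717642-56717761 (plus strand) and chr15:82354292-82354411 (minus strand).
Ndufa11: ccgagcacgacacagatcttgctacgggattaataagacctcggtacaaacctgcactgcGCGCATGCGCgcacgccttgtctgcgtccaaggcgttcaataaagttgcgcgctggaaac
Ndufa6: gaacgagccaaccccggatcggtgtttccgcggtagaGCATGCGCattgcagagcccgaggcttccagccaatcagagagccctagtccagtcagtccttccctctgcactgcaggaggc

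The YY1 letters had 1 placement in all 5 members: on the coding strand, 23 to 36 bases into the transcript, over the annotated start codon. The ATG and the GCG that follows it, an alanine codon, are both part of the letters, so these matches are also the start of the protein. They are shown in capitals, with up to 10 bases either side, at chr6:126849097-126849125 for Ndufa9, chr3:51408915-51408943 for Ndufc1, chr13:114388045-114388069 for Ndufs4 and chr13:73328433-73328459 for Ndufs6, all on the minus strand, and at chr10:80249463-80249491 on the plus strand for Ndufs7.
Ndufa9: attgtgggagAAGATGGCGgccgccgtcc
Ndufc1: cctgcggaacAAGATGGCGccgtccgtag
Ndufs4: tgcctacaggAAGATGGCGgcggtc
Ndufs6: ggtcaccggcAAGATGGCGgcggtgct
Ndufs7: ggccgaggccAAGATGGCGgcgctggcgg

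Counts of some members may hold or miss reads of other loci. A processed pseudogene with at least 95% identity over 200 or more bases was found for 6 members, namely Ndufa12, Ndufb4, Ndufb11, Ndufs3, Ndufs5 and Ndufs6. The copies had few counts, at most 8.21% of those of the member in a WT library (Ndufs6b, 40 counts beside 487 for Ndufs6 in MPPs) and 2.39% in an ING4-/- library. Exons on the opposite strand cover 39.0% of Ndufb6 (Smim27) and 30.0% of Ndufa13 (Tssk6), and whether the counting used strand is not given in the sources used here. Of the 31 members without a copy, which include the untested Ndufa4l2, 28 were called higher, against 7.98% of all genes tested.

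Marker genes of other cells also differed between the genotypes. Of 8 erythroid markers, 4 were called higher, all of them globins, and Alas2 was called lower with 0 counts in every ING4-/- library. Their summed level was 25.3 to 33.4 CPM in WT and 88.3 to 197 CPM in ING4-/- libraries. Of 11 granulocyte and monocyte markers tested, Lyz2, Prtn3 and S100a8 were called higher and Ly6g, at 0 in every ING4-/- library, lower, and the sum was 432 to 693 CPM in WT and 1197 to 1434 CPM in ING4-/- libraries. Of 8 B cell markers only Cd79b was called higher, 5 were at 0 in every ING4-/- library (Cd79a, Ms4a1, Ebf1 and Pax5 among them), and the sum was 132 to 153 CPM in WT and 130 to 331 CPM in ING4-/- libraries. Of 7 T and NK cell markers tested none was called higher and 4 lower, of 5 megakaryocyte markers Pf4 was called higher, and of 6 stroma and endothelium markers 3 were called lower. The part of such cells in the complex I result was not tested.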

How the data were processed

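Bulk RNA-seq of 6 libraries was used, 3 populations from each of 2 genotypes, grouped by the titles and genotype labels. Counts were used as the authors deposited them: whole reads per gene, not normalized, with exon coordinates and exonic length. A company prepared and sequenced the libraries and ran the initial analysis. The build in the submitters' processing notes is mm10, and the aligner, the counting program and the strand setting are not given in the sources used here. Symbols were taken from GENCODE vM21 (GRCm38), where 49056 of 49315 identifiers were found.

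Genotypes were compared by edgeR 4.0.16 under R 4.3.3, using TMM factors, filterByExpr and the quasi-likelihood F test, with Benjamini-Hochberg adjustment over all genes tested. SEs are the absolute log2 fold change over the square root of F. CPM are TMM-scaled, and log2 ratios within a population used a prior count of 2. The main transcript was the longest one tagged as principal in GENCODE, or the longest. Length and GC trends were removed per library by lowess with a span of 0.3. Background was the count density on 1431 protein-coding olfactory and vomeronasal receptor genes times exonic length. Copies were searched with blastn 2.17.0. The fits were tested on simulated data. DESeq2 1.42.0, other scalings, filters and left-out libraries were the alternatives.

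The members, lists and tests were chosen with earlier results of these data known. Some values, 1 member's among them, are not reported here. Library values are given for core subunits, the 3 highest and 3 lowest members, members not called, Ndufab1 and, chosen after its values were seen, Ndufb8. Deviations from the genotype mean correlated between the WT and ING4-/- library of a population (over 9673 genes, r was 0.143, 0.110 and 0.121, LT-HSCs first and MPPs last), so population pairs the libraries. The SEs and adjusted p-values quoted for genotype come from the fit without that pairing. With population in the edgeR fit, adjusted p was 0.019 for Ndufb5, 0.012 for Ndufa11 and 0.016 for Ndufs7, against 6.6e-04 for each without it. No library was a copy of another (chi-square per degree of freedom 15.4 or more within a genotype). Of the written list genes, Coa1 and Ahsp were not matched by symbol.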

Additional observations from a re-analysis of the deposited data

Results flagged for a closer look

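Ndufs1 was the only member whose difference between the genotypes changed sign between populations. Its log2 ratio of ING4-/- to WT was -0.89 in LT-HSCs, against 0.22 in ST-HSCs and 0.23 for MPPs. With 1 library per genotype and population, this difference was not tested.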

How the results depend on the processing

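The count of 33 members called higher stayed within 1.5 times of that under other scalings and tests, without the filter, without each library or population (31 to 34) and with population as a replicate block (33), which changed no call of a member. It dropped to 6 with the exonic length trend removed and to 3 with the main transcript length trend removed. With background subtracted it was 15 at 10 or more counts left, and 4 with the length trend also removed. No alternative called a member lower, and no population contrast called a member. The cause of the lost calls was not tested. The median of 1.82 was 1.67 to 1.98 without single libraries or populations. It moved to 2.41 with upper-quartile scaling, 1.45 with DESeq2 size factors, 1.46 with the DESeq2 test, 1.47 with protein-coding genes only, 1.30 at 10 or more counts, 1.38 with the GC trend removed, 0.70 and 0.61 with the length trends removed, 1.09 with background subtracted, 1.00 with 10 or more counts left and 0.35 with the length trend also removed. Upper-quartile scaling put the median of all genes at -6.35 and DESeq2 size factors at -7.17, against -6.85. With background subtracted and the length trend removed, Ndufs8 turned to -0.0048, and Ndufs3 (-0.26) and Ndufa10 (-0.28), not called before, were also below 0. With 1 pooled library per genotype and population, depth differs 4.70-fold between genotypes, and low counts in WT libraries cannot be told from background.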
